A study of Homo sapiens with 3 samples.

Results

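The genes described here are 40 genes of the NF-κB pathway and of cytokines, chemokines and growth factors, many of which this pathway controls, chosen by name from a list and followed in RNA of RWPE1 cells, an immortalized line of normal adult human prostate epithelial cells. A row was found for 39 of the 40 genes among the 58037 rows of the count table. SOD2, the mitochondrial superoxide dismutase, could not be matched to a row and was not analysed here. The 39 genes are 4 NF-κB subunits, 5 inhibitors and feedback genes, 6 chemokines with the ELR motif, which attract neutrophils, 6 other chemokines, 7 genes of the interleukin-1 family, 9 other cytokines and growth factors, and 2 effector genes.

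The study compared *OLFM4*-knockout with *OLFM4*-wild RWPE1 cells, and *OLFM4*-active with *OLFM4*-wild RWPE1 cells, to learn how olfactomedin 4 acts in prostate epithelium. There was 1 RNA library for each genotype, so no spread between replicates could be measured. Per the study's methods, OLFM4-knockout reporter cells were made from RWPE1 cells with CRISPR/Cas9 double nickase plasmids and OLFM4-wild reporter cells with CRISPR/Cas9 activation plasmids, both with a green fluorescent protein (GFP) reporter and puromycin selection, and RNA was taken from GFP-sorted cells. The study names the wild and knockout lines as cell clones, so each library can carry features of its clone, and its methods describe no separate line for the library labelled OLFM4-active. The wild library is headed Control in the deposited counts, and the study's RNA comparison names OLFM4-wild RWPE1 cells without the word reporter. The wild library may thus come from cells without plasmids and the OLFM4-active library from the activation-plasmid line, which the labels do not settle. OLFM4, the targeted gene, was counted 214 times in the OLFM4-wild, 131 times in the OLFM4-knockout and 16 times in the OLFM4-active-labelled library, or 11.8, 2.55 and 0.670 counts per 1000000 (CPM). OLFM4 was thus lowest in the library whose label names its activation, which goes against that label, and the libraries are called wild, knockout and active-labelled from here on.

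NF-κB transcription factors are dimers of subunits such as RelA, RelB and the products of NFKB1 and NFKB2, and in resting cells they are held in the cytoplasm by inhibitors such as IκBα. Signals from tumour necrosis factor, interleukin-1 or microbial receptors lead to the destruction of IκBα, and the released dimers switch on cytokines, chemokines, survival genes and their own inhibitors. In prostate epithelium, as in other barrier epithelia, these genes are known for calling neutrophils and other leukocytes to sites of infection or injury.

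The promoters of several of these genes carry the letters that NF-κB dimers bind, and windows are printed here for a selection of them. The 10-base κB consensus was searched on both strands in the 250 bases before the start of each gene, in RefSeq promoter sequences of GRCh38.p14. It was found in 15 of the 31 genes of the list with a promoter in that table (48.4%) and in 2614 of 27305 promoters overall (9.57%). Among genes that were lower in the knockout than in the wild library by the rule given below, 7 of 11 promoters held the consensus (63.6%), whereas 2 of 10 of the other genes above the level filter did (20%). These shares are a description of letters, not of binding, and the list was chosen for this pathway. The split into lower and other genes uses the fold changes of these same single libraries, so it cannot bear on why genes were lower. Each window holds 50 bases, written 5′ to 3′ along the gene, with the κB match in capitals and the coordinates, like all positions below, in GRCh38.
CXCL1 (chr4:73869294-73869343, plus strand): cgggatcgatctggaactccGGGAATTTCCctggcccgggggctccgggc
CXCL2 (chr4:74099244-74099293, minus strand): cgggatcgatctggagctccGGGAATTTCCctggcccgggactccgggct
CXCL6 (chr4:73836568-73836617, plus strand): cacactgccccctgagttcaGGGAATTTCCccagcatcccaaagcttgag
CXCL10 (chr4:76023645-76023694, minus strand): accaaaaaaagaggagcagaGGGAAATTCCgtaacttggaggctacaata
CXCL10 (chr4:76023590-76023639, minus strand): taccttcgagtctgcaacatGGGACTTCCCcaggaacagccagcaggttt
NFKBIA (chr14:35404801-35404850, minus strand): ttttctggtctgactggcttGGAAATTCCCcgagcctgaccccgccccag
BIRC3 (chr11:102317265-102317314, plus strand): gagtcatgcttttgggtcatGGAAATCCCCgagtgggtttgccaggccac
BIRC3 (chr11:102317329-102317378, plus strand): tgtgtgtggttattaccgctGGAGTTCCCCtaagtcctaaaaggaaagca
CXCL1, CXCL2 and CXCL6 share the same 10 letters, which overlap a further match that begins 1 base on, on the other strand. Counted from the gene's start, the matches of CXCL1, CXCL2 and NFKBIA begin at -79, -78 and -81 bases and that of CXCL6 at -90. The matches of CXCL10 begin at -177 and -122, and those of BIRC3 at -199 and -135. Where the 50-base window of a match overlapped an annotated exon of the same strand, as for IL6, TNFAIP3, NFKB1, NFKBIZ, LCN2 and CXCL3, it is not shown. The windows of CXCL5, CCL20 and IL23A, which overlap no such exon, are not printed either. The printed genes all had lower levels outside the wild library, so they do not stand for all genes with a match.

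Levels are CPM over library sizes scaled with TMM (trimmed mean of M values) factors, which centre the bulk of genes between libraries, and a fold change is the log2 ratio of such levels with 0.5 counts added. The 95% intervals describe counting error alone, and a comparison therefore sets libraries against each other, not conditions. Averaged over the 3 libraries, 26 of the 39 genes reached 1 CPM, the level set for counting, and 13 lay under it. A gene was called lower or higher when its log2 fold change passed -1 or 1. In the knockout against the wild library, 13 of the 26 genes were lower and 0 were higher. Over all 16600 genes at that level 7.56% were lower and 5.77% higher. The lower genes were LCN2, BIRC3, IL6, TNFSF10, TNFAIP3, CXCL1, CSF1, NFKBIA, IL36RN, RELB, CXCL2, CXCL8 and ICAM1. The median log2 fold change of the 26 was -0.99, beside 0.10 for all genes.

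In the active-labelled library against the wild library, 14 of the 26 were lower and 0 were higher, where 6.73% of all genes were lower and 3.78% higher. These 14 were BIRC3, TNFSF10, IL6, LCN2, NFKBIA, CXCL8, CSF1, CXCL1, IL36RN, CXCL2, TNFAIP3, NFKBIZ, NFKB2 and RELB. The median was -1.05, beside 0.05 for all genes. Both comparisons use the same wild library, so a level that is high in that library enters both. Between the knockout library and the active-labelled library, 1 gene was higher, CCL5, and 1 was lower, LCN2, where 2.95% of all genes were higher and 3.39% lower, and the median was 0.05. With library totals in place of TMM, every fold change of these 3 comparisons falls by 0.35, 0.11 and 0.24 in the order given, and the medians of the 26 genes become -1.35, -1.16 and -0.19. By totals 15, 16 and 3 of the 26 were lower, where 14.1%, 8.46% and 6.97% of all genes were, and 0 were higher in any of them.

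A gene near the filter can pass it through its high library alone, and it then has to differ. IL6 was above 1 CPM in the wild library alone, with 3.58 CPM there, 0.526 in the knockout and 0.586 in the active-labelled library. Its lower calls, also by the stricter rules below, are thus not free of the filter. Among the 15 genes that average 10 CPM or more, 4 were lower in the knockout library (BIRC3, TNFSF10, TNFAIP3 and NFKBIA), beside 2.93% of all genes at that level, and 6 in the active-labelled library (the same 4 with NFKB2 and NFKBIZ), beside 2.49%. BIRC3, TNFSF10 and TNFAIP3 lie above 10 CPM in the wild library alone, so this higher filter does not free their calls from the choice, whereas NFKBIA lies above it in each library. Stricter rules kept part of the calls. With a call at 2 on the log2 scale, 6 of the 26 genes were lower and 0 higher in the knockout against the wild library (1.44% and 0.663% of all genes), and 6 were lower and 0 higher in the active-labelled library (1.54% and 0.506%). When the whole counting interval had to lie beyond the call, 8 were lower and 0 higher in the knockout library, where 3.96% of all genes were lower and 2.77% higher. These 8 were LCN2, BIRC3, IL6, TNFSF10, TNFAIP3, CXCL1, CSF1 and NFKBIA. In the active-labelled library 11 were lower and 0 higher by that rule (3.19% and 1.48%). Between the knockout and the active-labelled library neither rule left a gene, with 0.259% of all genes higher and 0.175% lower at 2, and 0.843% and 1.22% by the interval.

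**Figure D1:**
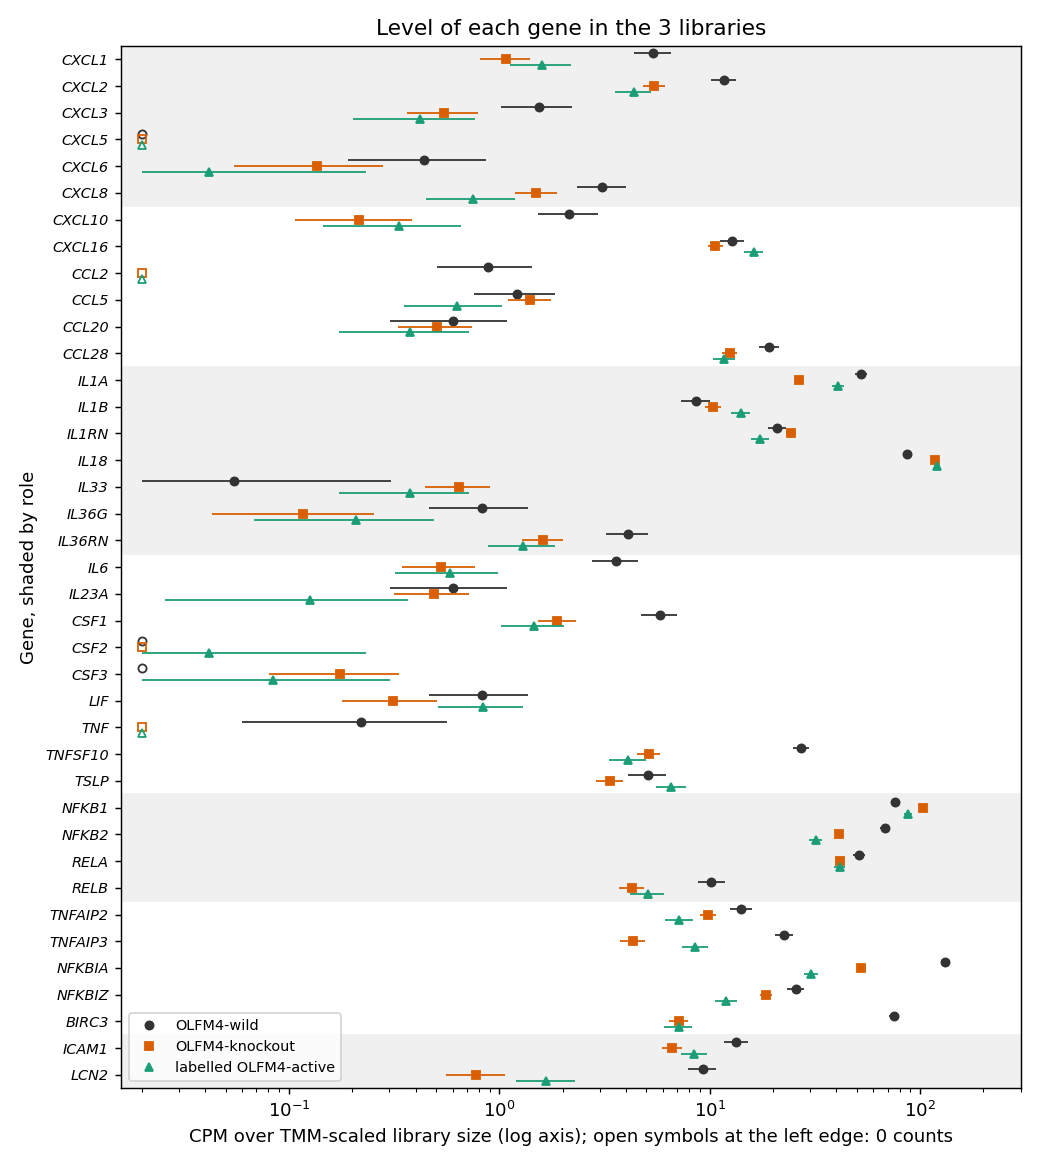
Level of each of the 39 genes in CPM over TMM-scaled library size, on a log axis, with 1 symbol per library and lines for 95% counting intervals. Open symbols at the left edge mark 0 counts, and BIRC3 shows the wild library at 75.1 CPM, to the right of the other libraries at 7.15 and 7.12.

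**Figure D2:**
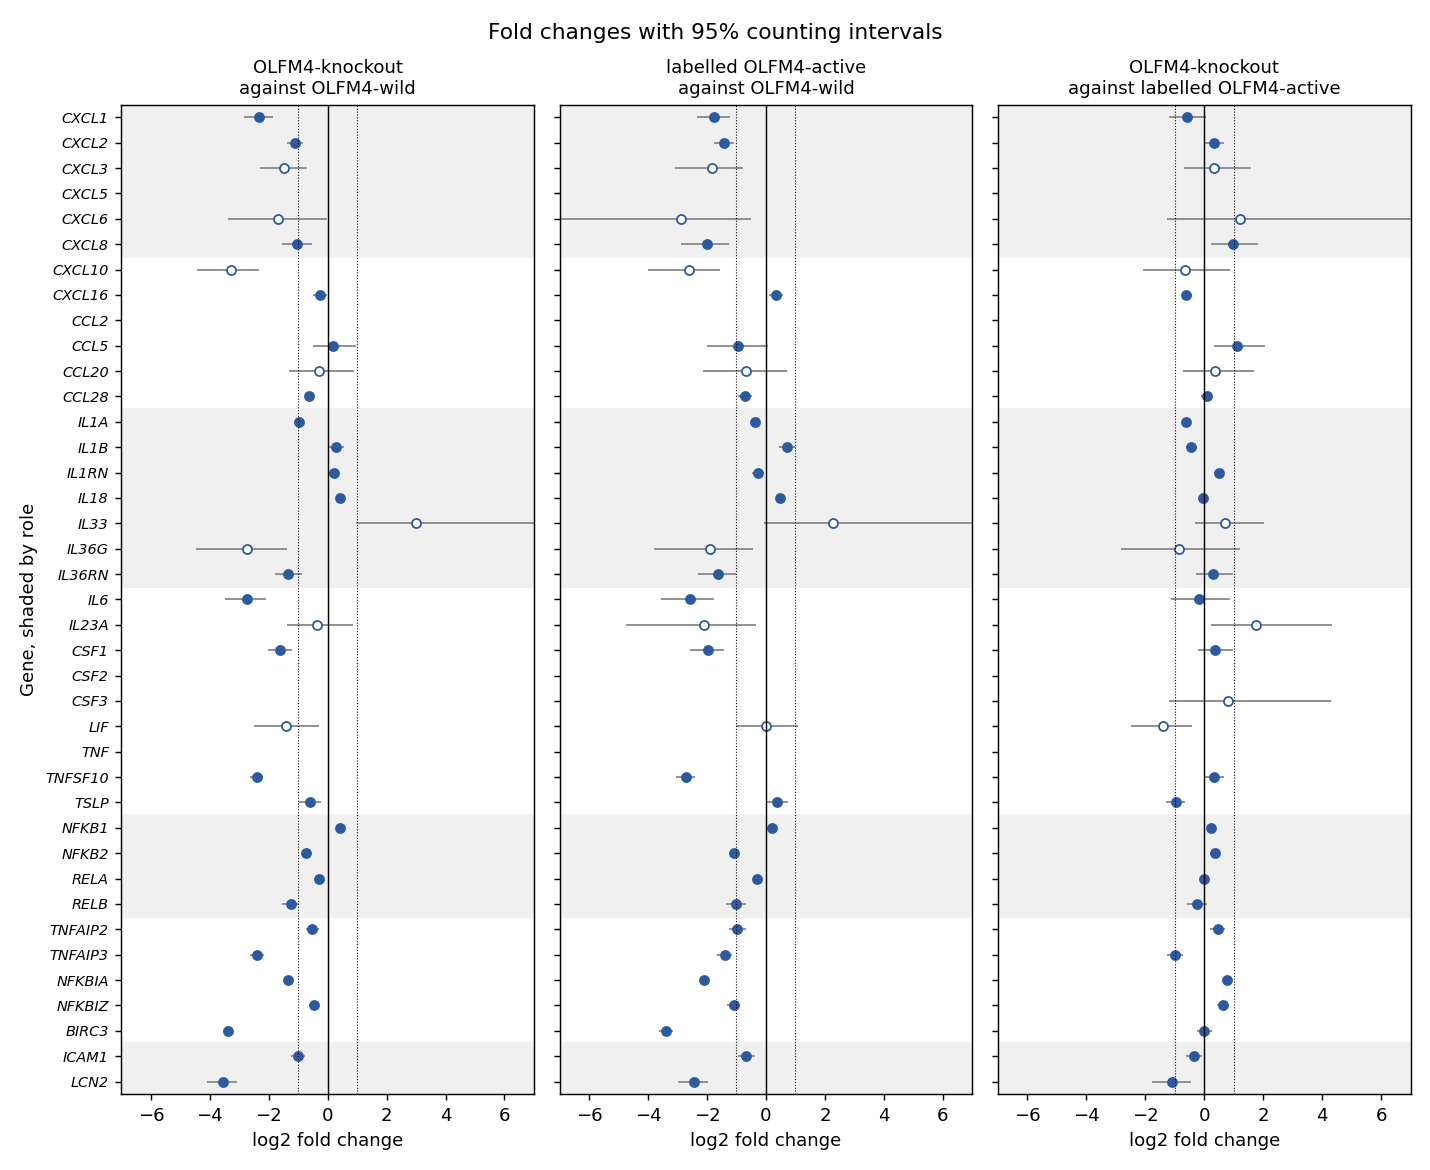
Log2 fold change of each gene in the 3 comparisons with 95% counting intervals, cut at the edge of the axis. Filled points are genes that reach 1 CPM on average, open points lie under it, dotted lines mark -1 and 1, and genes with 0 counts in either library have no point; the called points of the left and middle panels lie to the left of -1.

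The subunits of NF-κB differed in level, and their values did not move as a block. NFKB1, which encodes the p105 precursor of p50 and lies on chromosome 4 from 102501330 to 102617302, had 76.3 CPM in the wild library, 103 in the knockout library and 88.0 in the active-labelled library. RELA, which encodes the transactivating subunit p65, had 51.2, 41.4 and 41.4 CPM in the same order. With TMM, both genes of the canonical dimer stayed within a log2 fold change of 0.43 of the wild library. With library totals, RELA was at -0.66 in the knockout and -0.42 in the active-labelled library, and NFKB1 at 0.08 and 0.09.

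NFKB2 and RELB encode the subunits of the non-canonical dimer, p100/p52 and RelB, and both were highest in the wild library. NFKB2, on chromosome 10 from 102394110 to 102402524, had 68.0, 41.2 and 32.0 CPM, with a log2 fold change in the knockout library of -0.72 (-0.83 to -0.62) and in the active-labelled library of -1.09 (-1.22 to -0.96). RELB, on chromosome 19 from 45001461 to 45038192, had 10.2, 4.27 and 5.06 CPM, with log2 fold changes of -1.26 (-1.54 to -0.96) and -1.01 (-1.35 to -0.67). The second RELB value sits at the edge of the call. RELB thus passed the call in both comparisons and NFKB2 in that of the active-labelled library, with -1.08 in the knockout when library totals replace TMM.

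The inhibitors and feedback genes are induced by NF-κB itself, and of them NFKBIA and TNFAIP3 encode proteins that restrain it. All 5 lay below their wild level in both other libraries. By the call 3 of 5 were lower in the knockout and 4 of 5 in the active-labelled library, beside 7.56% and 6.73% of all genes. Such groups are small parts of the same list, so their counts add nothing independent to those of the whole list. Their summed level was 269 CPM in the wild library, 91.9 CPM in the knockout library and 65.1 CPM in the active-labelled library. NFKBIA, which encodes IκBα and lies on chromosome 14 from 35401079 to 35404749, had 2393 counts or 132 CPM (95% interval 126 to 137) in the wild library. It had 52.1 CPM (50.1 to 54.1) in the knockout library and 30.3 CPM (28.2 to 32.6) in the active-labelled library. The log2 fold changes were -1.34 (-1.42 to -1.26) and -2.12 (-2.24 to -1.997). No interval of the 3 libraries overlaps another, and the order was wild, knockout, active-labelled.

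BIRC3, which encodes the ubiquitin ligase cIAP2 of the TNF receptor complex and lies on chromosome 11 from 102317484 to 102339403, had the widest gap from the wild library among the 15 genes that average 10 CPM or more. Its level was 75.1 CPM (71.2 to 79.2) in the wild library, from 1365 counts. The knockout library held 367 BIRC3 counts, or 7.15 CPM (6.44 to 7.92), and the active-labelled library 170 counts, or 7.12 CPM (6.09 to 8.27). It was 10.5-fold lower in each of these libraries than in the wild library, with log2 fold changes of -3.39 (-3.56 to -3.23) and -3.40 (-3.64 to -3.17). Between the other two libraries the difference was 0.00 (-0.26 to 0.28) on the log2 scale, and -0.23 with library totals.

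TNFAIP3 encodes A20, the ubiquitin-editing enzyme that ends NF-κB signalling, and lies on chromosome 6 from 137867214 to 137883314. It had 22.5 CPM in the wild library, 4.31 in the knockout library and 8.54 in the active-labelled library, with log2 fold changes of -2.38 (-2.63 to -2.15) and -1.40 (-1.65 to -1.15) against the wild library. Here the knockout library was the lowest, unlike for NFKBIA. NFKBIZ, an atypical nuclear IκB that helps induce secondary response genes, had 25.6, 18.6 and 11.97 CPM in the order wild, knockout, active-labelled, with log2 fold changes of -0.46 and -1.10. TNFAIP2, a TNF-induced gene, had 14.1, 9.80 and 7.16 CPM, with log2 fold changes of -0.53 and -0.98 that miss the call; with library totals the second was -1.09.

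The ELR chemokines, ligands of the receptors CXCR1 and CXCR2 on neutrophils, were lower in sum outside the wild library. The 6 genes summed to 22.1 CPM in the wild library, 8.69 in the knockout library and 7.16 in the active-labelled library. All 3 of them above the filter were called lower in both comparisons, beside 7.56% and 6.73% of all genes. CXCL1, on chromosome 4 from 73869393 to 73871308, gave 98, 55 and 38 counts in the order wild, knockout, active-labelled, or 5.39, 1.07 and 1.59 CPM. Its log2 fold changes were -2.33 (-2.83 to -1.84) and -1.75 (-2.34 to -1.21), a 5.01-fold lower level in the knockout library. CXCL2, on chromosome 4 from 74097040 to 74099196, was the most abundant of the 6 per exon length in the wild library, and had 11.7, 5.44 and 4.35 CPM. Its log2 fold changes of -1.10 (-1.37 to -0.84) and -1.42 (-1.77 to -1.08) were smaller than those of CXCL1 in the knockout library.

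CXCL8, on chromosome 4 from 73740519 to 73743716, encodes interleukin-8 and had 56, 77 and 18 counts in the order wild, knockout, active-labelled. These gave 3.08 CPM (2.33 to 4.002) in the wild library, 1.5 (1.18 to 1.88) in the knockout library and 0.753 (0.447 to 1.19) in the active-labelled library. Both of the last levels lie under that of the wild library. CXCL3, under the filter, had 28, 28 and 10 counts, or 1.54, 0.546 and 0.419 CPM. CXCL6 had 8, 7 and 1 counts, and CXCL5 had 0 in each library, which allows up to 0.165, 0.0584 and 0.126 CPM at 3 counts. The transcripts of CXCL1, CXCL2 and CXCL3 are alike: 7.56% of the 75-base stretches of CXCL2 and 4.57% of those of CXCL3 also occur in another of these 3 genes, so uniquely mapped counts leave these stretches out.

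Of the other chemokines, 3 passed the filter and 0 of these were called in either comparison with the wild library, while CXCL10 and CCL2, under the filter, were lower in both. CXCL10, a ligand of CXCR3 on T cells that interferon induces, lies on chromosome 4 from 76021118 to 76023497. It had 39 counts in the wild library, 11 in the knockout library and 8 in the active-labelled library, or 2.15 CPM (1.53 to 2.93), 0.214 CPM (0.107 to 0.383) and 0.335 CPM (0.145 to 0.660). Although its mean lies under 1 CPM, its wild level stood outside the counting intervals of the others, with log2 fold changes of -3.28 (-4.44 to -2.33) and -2.61 (-3.99 to -1.56). CCL2, which attracts monocytes, had 16 counts in the wild library and 0 in both others. Set against the floor of 3 counts per library, with the wild level taken as measured, it was at least 15.1-fold lower in the knockout library and at least 7.01-fold lower in the active-labelled library. With the counting error of the 16 wild counts included, the upper limits of the log2 fold change were -3.45 and -2.34.

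CXCL16, a transmembrane chemokine of the epithelial surface, and CCL28, a mucosal chemokine, were closer between libraries. CXCL16 had 12.8, 10.6 and 16.2 CPM in the order wild, knockout, active-labelled, and CCL28 had 19.2, 12.4 and 11.7 CPM. Neither passed the call in a comparison. CCL5, which attracts T cells and monocytes, had 1.21, 1.40 and 0.628 CPM from 22, 72 and 15 counts. It was 1.12 higher on the log2 scale in the knockout than in the active-labelled library (0.34 to 2.07), and 9.1% of its 75-base stretches occur in other genes. CCL20, the ligand of CCR6, had 11, 26 and 9 counts, and its CPM intervals overlap in all 3 libraries.

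The interleukin-1 family held IL18 and IL1A, the most abundant cytokines of the list per exon length, and its summed level differed little between libraries. Its 7 genes summed to 174 CPM in the wild library, 181 CPM in the knockout library and 194 CPM in the active-labelled library. IL18, which is stored as a precursor and cut by caspase-1, lies on chromosome 11 from 112143253 to 112164096. It had 1580, 6010 and 2873 counts in the order wild, knockout, active-labelled, or 87.0, 117 and 120 CPM. The log2 fold changes of IL18 against the wild library were 0.43 (0.35 to 0.51) and 0.47 (0.38 to 0.56), and 0.08 and 0.35 with library totals. IL1A, the alarmin IL-1α on chromosome 2 from 112773925 to 112784493, had 52.3, 26.6 and 40.8 CPM. Its log2 fold change in the knockout library was -0.98 (-1.10 to -0.86), just short of the call, and -1.33 with library totals.

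IL1B, which encodes IL-1β, had 8.59 CPM in the wild library, 10.4 in the knockout library and 14.0 in the active-labelled library, so it was not lower in either. Its log2 fold change in the knockout library was 0.27 with TMM and -0.08 with library totals, a direction that depends on the scaling. IL1RN, the receptor antagonist that blocks both interleukins, had 20.9, 24.4 and 17.4 CPM, and its log2 fold change in the knockout library also turned from 0.22 to -0.13 with library totals. IL36RN, the antagonist of the IL-36 receptor, differed from these: it had 74, 83 and 31 counts, or 4.07, 1.62 and 1.30 CPM, with log2 fold changes of -1.33 (-1.80 to -0.86) and -1.64 (-2.30 to -1.03). Its agonist IL36G had 15, 6 and 5 counts. IL33, a nuclear alarmin, had 1 count in the wild library, 33 in the knockout library and 9 in the active-labelled library, with log2 fold changes of 2.98 (0.97 to 8.89) and 2.27 (-0.08 to 8.23).

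Among the other cytokines and growth factors, 3 of the 4 genes above the filter were called lower in both comparisons, beside 7.56% and 6.73% of all genes. IL6, 1 of these 3, lay above 1 CPM in the wild library alone. The 9 genes summed to 43.3 CPM in the wild library, 11.9 in the knockout library and 13.8 in the active-labelled library. TNFSF10 encodes TRAIL, a ligand that triggers apoptosis through death receptors, and lies on chromosome 3 from 172505508 to 172523475. It made up most of that sum in the wild library, with 27.2 CPM (24.9 to 29.7) in the wild library, 5.12 CPM (4.52 to 5.78) in the knockout library and 4.10 CPM (3.33 to 4.999) in the active-labelled library. The log2 fold changes were -2.41 (-2.63 to -2.19) and -2.73 (-3.06 to -2.42), that is 5.31-fold and 6.61-fold lower levels.

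IL6, the acute-phase cytokine on chromosome 7 from 22725884 to 22732002, gave 65, 27 and 14 counts in the order wild, knockout, active-labelled, or 3.58, 0.526 and 0.586 CPM. Its log2 fold changes were -2.75 (-3.47 to -2.10) and -2.57 (-3.56 to -1.76), and its levels in the last libraries differed by less than counting error. CSF1, the macrophage colony-stimulating factor, had 105, 97 and 35 counts, or 5.78, 1.89 and 1.47 CPM, with log2 fold changes of -1.61 (-2.03 to -1.20) and -1.97 (-2.58 to -1.42). TSLP, an epithelial cytokine that acts on dendritic cells, was the exception, with 5.06, 3.35 and 6.57 CPM, its highest level in the active-labelled library.

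The remaining genes of this group were at or near the limit of detection. TNF had 4 counts in the wild library and 0 in both others. The upper counting limit of its log2 fold change was -0.90 in the knockout library and 0.20 in the active-labelled library, and the second includes no difference. IL23A had 11, 25 and 3 counts in the order wild, knockout, active-labelled, and LIF 15, 16 and 20. CSF3 had 0, 9 and 2 counts, and CSF2 0, 0 and 1. Against the wild library, the counting intervals of IL23A, LIF, CSF2 and CSF3 left out 0 only for LIF in the knockout library, at -1.41 (-2.52 to -0.29), and for IL23A in the active-labelled library, at -2.11 (-4.75 to -0.35). The other differences of these 4 genes from the wild library were not detectable at this depth.

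Both effector genes were lower outside the wild library. LCN2 encodes lipocalin 2, an antibacterial protein that sequesters iron-carrying siderophores, and lies on chromosome 9 from 128149071 to 128153453. From 168, 40 and 40 counts its level was 9.25 CPM (7.90 to 10.7), 0.779 CPM (0.557 to 1.06) and 1.67 CPM (1.196 to 2.28) in the order wild, knockout, active-labelled. It was 11.7-fold lower in the knockout than in the wild library. The log2 fold change of -3.56 (-4.10 to -3.06) was the lowest of the 26 genes. In the active-labelled library its log2 fold change was -2.45 (-3.001 to -1.96). ICAM1, the adhesion molecule that leukocyte integrins bind, had 13.4, 6.64 and 8.45 CPM, with log2 fold changes of -1.01 (-1.25 to -0.77) and -0.66 (-0.94 to -0.39).

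The direct comparison of the knockout library with the active-labelled library gives smaller differences that do not involve the wild library. LCN2 was lower in the knockout library by a log2 fold change of -1.10 (-1.77 to -0.43). TNFAIP3, with -0.99 (-1.27 to -0.71), and TSLP, with -0.97 (-1.29 to -0.65), came close to the call in the same direction and passed it with library totals, at -1.23 and -1.21. In the other direction, CXCL8 was at 0.96 (0.24 to 1.82), NFKBIA at 0.78 (0.66 to 0.90) and NFKBIZ at 0.63 (0.44 to 0.83). The feedback genes thus split, with TNFAIP3 lower and NFKBIA and NFKBIZ higher in the knockout library under both scalings. RELA, BIRC3 and IL18 lay within 0.04 of 0 on the log2 scale with TMM.

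Levels between genes were set side by side per kilobase of exon, as TPM, which scale each library to the same total. In the wild library NFKBIA ranked first of the 39 genes, with 77.4 TPM, followed by IL18 with 66.5, IL1A with 51.7, NFKB2 with 24.3 and BIRC3 with 20.01 TPM. In the knockout library and in the active-labelled library IL18 ranked first, with 56.2 and 87.3 TPM. LCN2 went from place 9 to places 24 and 20, and BIRC3 from place 5 in the wild library to place 18 in the knockout library and place 21 in the active-labelled library. TNFSF10 went from place 8 to places 15 and 18.

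Ratios of counts within a library do not depend on how libraries are scaled. NFKBIA had 103 counts (95% interval 97.5 to 109) per 100 counts of its partners NFKB1 and RELA in the wild library, 36.1 (34.5 to 37.7) in the knockout library and 23.4 (21.6 to 25.4) in the active-labelled library. The inhibitor was low relative to the subunits in both of these libraries, with intervals apart in all 3. IL1RN had 34.3 counts (30.5 to 38.6) per 100 of IL1A and IL1B together in the wild library and 31.8 (28.4 to 35.5) in the active-labelled library, which overlap. In the knockout library this ratio of antagonist to agonists was 66.0 (61.4 to 70.9), above both. For IL36RN per 100 of IL36G the values were 493, 1383 and 620, and for CXCL1 to CXCL3 per 100 of CXCL8 they were 604, 470 and 844, with overlapping intervals.

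**Figure D3:**
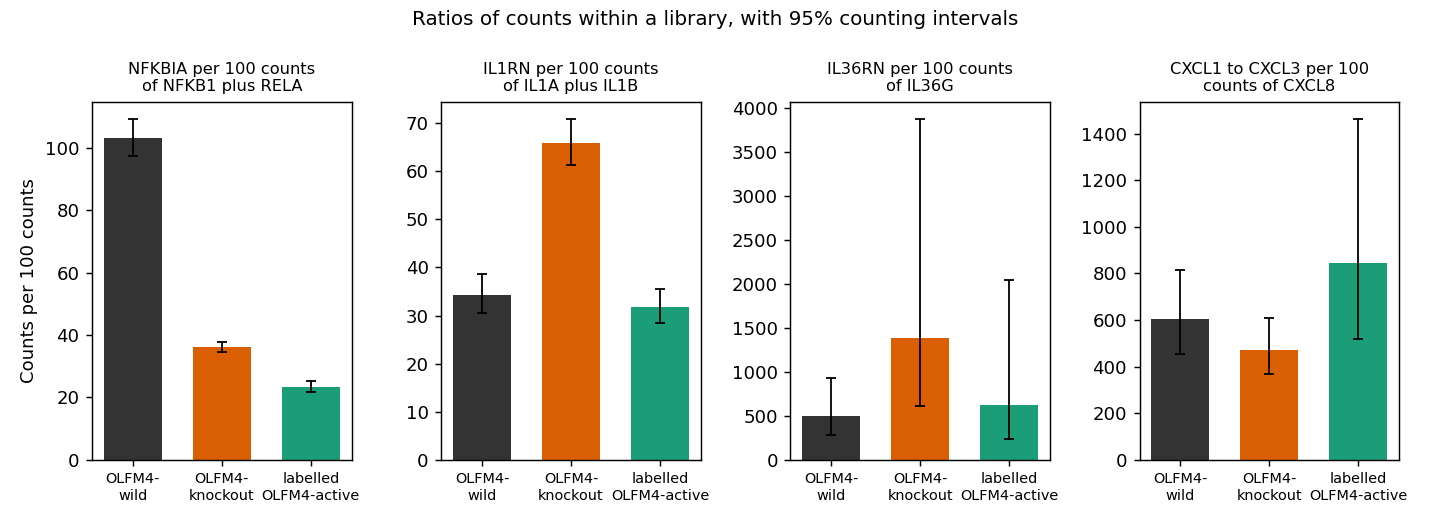
Counts of a gene or group per 100 counts of its partner within each library, with bars from 0 and 95% counting intervals. NFKBIA per 100 counts of NFKB1 plus RELA stands at 103 in the wild library, 36.1 in the knockout library and 23.4 in the active-labelled library, and IL1RN per 100 of IL1A plus IL1B is highest in the knockout library, at 66.0.

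Other lists of the pathway place these genes in context. Their counts in the knockout library stand beside the 7.56% of all genes that were lower and the 5.77% that were higher. For the active-labelled library these shares were 6.73% and 3.78%. Of 31 other NF-κB target genes, 25 reached 1 CPM on average, and in the knockout against the wild library 10 of these were lower and 1 was higher, with a median of -0.45. In the active-labelled library 12 were lower and 0 higher, with a median of -0.91. The medians of all genes in these comparisons were 0.10 and 0.05. Some of the genes lower in both comparisons lay above 1 CPM in the wild library alone. Their calls follow from the filter, so these counts are not free of it. PI3, the protease inhibitor elafin, had 98.7, 5.43 and 8.62 CPM in the order wild, knockout, active-labelled, and S100A8 and S100A9, the calprotectin subunits, had log2 fold changes of -2.81 and -2.04 in the knockout library. TNC, the matrix protein tenascin C, had -1.62.

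Of 30 adaptors and kinases, all above the filter, 4 were lower (13.3%) and 0 higher in the knockout library, with a median of -0.09. In the active-labelled library 1 was lower, which is 3.33% and under the 6.73% of all genes. MYD88, the adaptor of Toll-like and IL-1 receptors, had 15.2, 6.49 and 14.9 CPM, and TAB2, a partner of the kinase TAK1, had 108, 51.6 and 108 CPM. Both were lowest in the knockout library and nearly level between the other libraries. CARD10 and TAB3 had log2 fold changes of 0.86 and -0.84. Of 39 receptors, 22 passed the filter, 1 was higher and 1 lower in the knockout library, which is 4.55% each way and under the shares of all genes, and TNFRSF12A, the TWEAK receptor, was the higher one, at 1.39 with TMM. IL6R, TNFRSF10A, a TRAIL receptor, and TNFRSF1A, the main TNF receptor, had 0.97, 0.87 and 0.82.

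Of 14 other subunits, inhibitors and feedback genes, 13 passed the filter, with 1 higher and 1 lower in the knockout library and a median of -0.46. REL, the c-Rel subunit, had 81.3, 27.2 and 37.5 CPM and was called lower in both comparisons, at -1.58 and -1.12. PDLIM2, a ubiquitin ligase that ends the activity of RelA, was higher, at 1.51, and TRIB3 and CYLD, a deubiquitinase, had -0.99 and -0.93. Of 33 other cytokines and chemokines only 6 passed the filter, with 2 higher and 2 lower, and CXCL14 had 282, 663 and 304 CPM. Of 8 inflammasome genes, 6 passed, 1 was higher, PYCARD, the adaptor ASC, at 1.201 with TMM, and 0 were lower. GSDMD, NLRP1 and IL18BP had 0.68, -0.33 and -0.16. With library totals, the higher counts of these lists become 0 for the other targets and the inflammasome genes and 1 for the other cytokines, and stay at 1 for the receptors and for the other subunits. The lower counts in the knockout library become 12 for the other targets, 7 for the adaptors and kinases, 6 for the receptors, 3 for the other subunits and 3 for the other cytokines, while the share of lower genes among all genes becomes 14.1%.

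**Figure D4:**
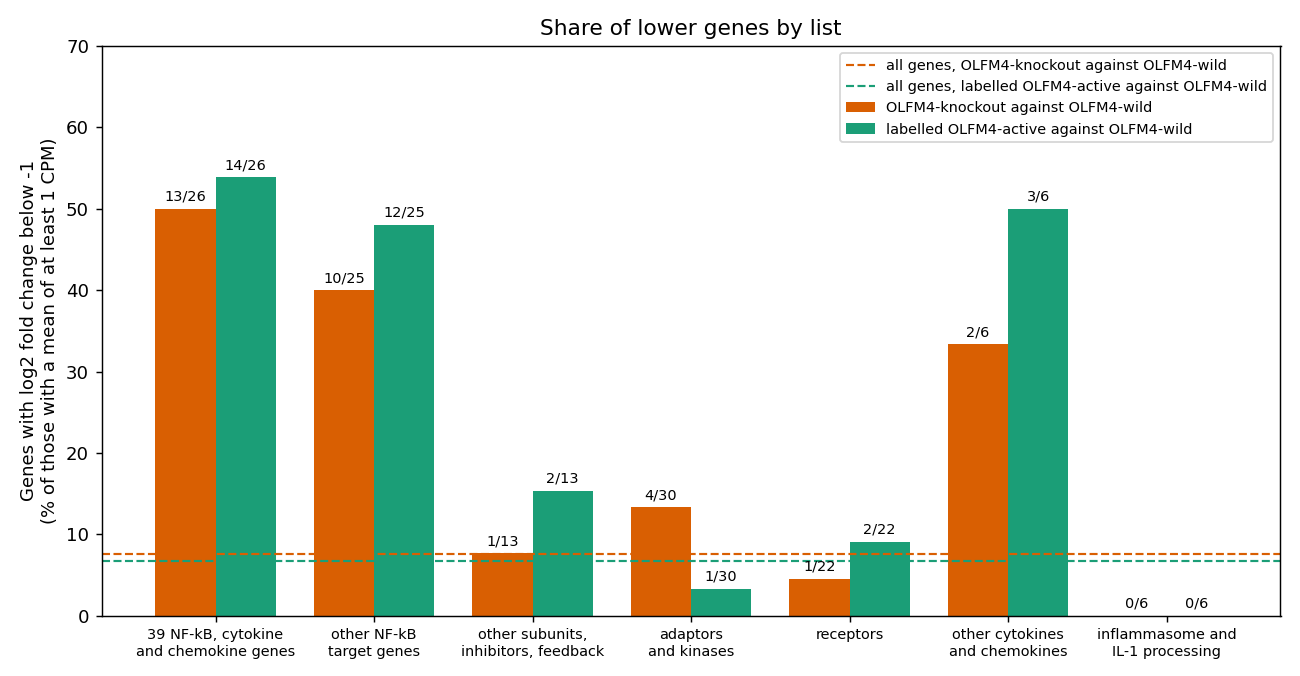
Share of genes with a log2 fold change below -1, in percent of the genes of each list that reach 1 CPM on average, for the knockout and the active-labelled library against the wild library. Numbers over the bars give lower and tested genes, dashed lines show all genes at 7.56% and 6.73%, and the list of 39 genes stands at 50% and 53.8%.

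The cell type of the libraries was checked with markers. The 5 basal and general epithelial markers KRT5, KRT14, TP63, EPCAM and CDH1 were present in each library. They summed to 16960 CPM in the wild library, 37607 in the knockout library and 20086 in the active-labelled library. These sums rest on KRT5, with 12232, 27077 and 13686 CPM, and KRT14, with 4006, 9666 and 5542. TP63 was closer between libraries, with 413.5, 472.3 and 449.9 CPM, and EPCAM and CDH1 were highest in the active-labelled library. Of the luminal markers, KRT8 had 282, 231 and 146 CPM, and KLK3, which encodes the prostate-specific antigen of secretory cells, had 2 counts in the wild library and 0 in the others. Leukocytes are a strong source of many cytokines, and of 11 leukocyte markers 7 had 0 counts in the wild library, among them PTPRC, which encodes CD45, CD3D, CD79A and LYZ. The 11 summed to 32.6, 25.9 and 20.5 CPM, of which CD68 alone gave 31.4, 24.4 and 19.8. Some other leukocyte markers had their highest count and CPM in the knockout library, with 2, 25 and 6 counts for CD14, 0, 14 and 0 for CD79A and 7, 38 and 9 for NCAM1. PTPRC was also highest there, with 0, 2 and 0 counts. ITGAM went the other way and was highest in the wild library, with 14, 0 and 1 counts, as CCL2 and TNF were. The 6 fibroblast markers summed to 34.0, 31.7 and 22.9 CPM with COL3A1 and LUM at 0, of which COL1A1 gave 30.2, 25.8 and 21.8 and COL1A2 2.75, 5.22 and 1.004, and the 4 endothelial markers to 1.76, 0.838 and 0.460 CPM with CDH5 at 0. The leukocyte and fibroblast sums, which rest on CD68 and COL1A1, and the endothelial sum were highest in the wild library, as many genes of the list were, and their part in those differences was not tested. In bulk RNA, fewer cells that express a gene and less of its RNA per cell cannot be told apart.

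The libraries differed in depth, with 16309906 counts for wild, 58837147 for knockout and 23224216 for the active-labelled library. A floor of 3 counts per library stands for 0.165, 0.0584 and 0.126 CPM, and 4, 4 and 7 of the 39 genes lay at or under it. Genotype, clone, library and any difference in plasmids, selection or sorting between the wild and the other libraries cannot be told apart with 1 library each.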

How the data were processed

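The study's methods name GFP-sorted RWPE1 cells as the source of RNA, which the labels do not settle for the wild library. The RNA was freed of ribosomal RNA with Ribo-Zero and sequenced in stranded pairs of 75 bases, 1 library per genotype. The authors trimmed with cutadapt, aligned to GRCh38 with HISAT2, counted uniquely mapped, reversely stranded pairs with featureCounts, and deposited the counts per gene without normalization; per the submitters' processing notes and the study's methods. Rows were named by matching their Ensembl identifiers to GENCODE version 44, which gave positions and exon lengths.

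Library sizes were scaled with TMM factors (1.11, 0.872 and 1.03 for wild, knockout and active-labelled) from edgeR 4.0.16, and log2 fold changes follow limma-voom (limma 3.58.1, R 4.3.3) with an offset of 0.5 counts. With 1 library per group no test across conditions could be fitted, and p-values are not given. Intervals are 95% Clopper-Pearson intervals on counts (conditional on the sum of both libraries for fold changes), which cover counting error only. Counting needed a mean of at least 1 CPM. Other calculations used Python 3.11.15, numpy 2.4.6, pandas 2.3.3, scipy 1.17.1 and matplotlib 3.10.9. The procedure was tested on simulated data.

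The genes and lists were chosen with earlier results of these data known. Every gene of the list is named, and of each other list up to 4 genes with the largest absolute log2 fold change, knockout against wild, among those with a mean of at least 10 CPM, besides OLFM4 and the cell type markers. Some results under this rule are not reported here. Alternatives were library totals, size factors of DESeq2 1.42.0, upper quartile factors, offsets of 1 and 5 counts, a filter at 10 CPM or none, thinning to 16309906 counts, a call at 2, and a call by the whole interval.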

Additional observations from a re-analysis of the deposited data

How the results depend on the processing

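No paired analysis was possible because each group has 1 library, and for the same reason no replicate could be left out. The lower calls of the list changed with the level filter and the threshold. In the knockout against the wild library, 4 of 15 genes were lower with a filter at 10 CPM (2.93% of all genes), 3 of them above 10 CPM in the wild library alone, with a median of -0.53, and without a filter 20 of 37 were lower and 2 higher (24.2% and 10.1% of all genes). A call at 2 left 6 lower (1.44% of all genes), a call by the whole interval 8 (3.96%), and library totals moved the median to -1.35. In the active-labelled against the wild library, 6 of 15 were lower at 10 CPM (2.49%), with a median of -0.72, 6 of 26 with a call at 2 (1.54%), and without a filter 21 of 38 were lower and 3 higher (22.4% and 14.8%). Between the knockout and the active-labelled library, the 1 higher and 1 lower gene became 0 and 3 with library totals, 3 lower with upper quartile factors, 0 higher with an offset of 5 counts, 3 and 3 without a filter, 0 and 2 after thinning, and 0 and 0 at 10 CPM, with a call at 2 or by the whole interval. Fewer genes enter or pass by construction with the stricter filters and calls. With an offset of 5 counts, log2 fold changes turned for CSF3 in the knockout against the wild library (-0.0129), CSF2 in the active-labelled against the wild library (-0.13) and CXCL6 between the other pair (-0.10), genes with at most 9 counts in any library. Under library totals, CCL5, IL1B and IL1RN changed sign in the first comparison, LIF in the second, and CCL28, NFKB1 and BIRC3 in the third. The ratio of IL36RN to IL36G could not be given for the thinned knockout library, where IL36G had 0 counts.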
